A study of Arabidopsis thaliana with 6 samples.

Results

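The gibberellin receptor and DELLA genes of Arabidopsis were followed in leaf mRNA of WT and *rse1-1* plants. They were chosen by locus: the 5 DELLA genes *GAI* (AT1G14920), *RGA* (AT2G01570), *RGL1* (AT1G66350), *RGL2* (AT3G03450) and *RGL3* (AT5G17490), the receptor genes *GID1A* (AT3G05120), *GID1B* (AT3G63010) and *GID1C* (AT5G27320), the F-box gene *SLY1* (AT4G24210) and the synthesis gene *GA20OX1* (AT4G25420). These are 10 of the 33602 genes counted, and 6 of the 10 had a mean of at least 10 counts per library. WT was the L*er* accession. The *rse1-1* mutant was made in L*er* by EMS and carries a C-to-T change that puts an early stop codon into *RSE1* (AT5G22070), which encodes a glycosyltransferase-like protein. The comparison therefore rests on 1 mutant allele. Leaves 3 and 4 were taken at 16 days after sowing, when *rse1-1* leaves were not yet visibly yellow, from plants grown at 22 °C under 16 h of light and 8 h of dark. Each genotype had 3 biological replicates.

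Gibberellins are diterpenoid hormones of plant growth. DELLA proteins are nuclear repressors of the GRAS family that hold growth back. When a gibberellin enters the pocket of a GID1 receptor, the receptor binds the N-terminal part of a DELLA protein, SLY1 brings the complex to an SCF ubiquitin ligase, and the DELLA protein is degraded by the proteasome. DELLA activity is thus set largely at the protein level, which mRNA counts do not show. In leaves, gibberellin and DELLA proteins are known for their part in expansion, in jasmonate and light responses and in the timing of senescence.

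The stretch that gives the DELLA family its name is part of the N-terminal region that the receptors bind. It is shown first because it is what the 5 repressor genes have in common, and because genes this alike can share sequencing reads. The sequences below are the coding strand of the Col-0 reference, RefSeq build TAIR10.1, read 5′ to 3′, and not L*er*. They come from the only exon of each gene, at chr1:5149474-5149533 on the plus strand for *GAI*, chr2:257177-257236 on the minus strand for *RGA*, chr1:24748399-24748458 on the plus strand for *RGL1*, chr3:821112-821171 on the minus strand for *RGL2* and chr5:5765750-5765809 on the minus strand for *RGL3*. Capitals mark the 5 codons at the place of the DELLA motif.
GAI: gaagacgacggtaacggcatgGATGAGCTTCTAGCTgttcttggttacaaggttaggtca
RGA: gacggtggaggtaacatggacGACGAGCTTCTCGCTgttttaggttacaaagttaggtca
RGL1: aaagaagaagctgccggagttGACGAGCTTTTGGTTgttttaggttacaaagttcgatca
RGL2: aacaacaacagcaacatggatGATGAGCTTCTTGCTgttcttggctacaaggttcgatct
RGL3: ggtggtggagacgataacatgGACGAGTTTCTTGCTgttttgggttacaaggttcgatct
Of the 15 capital bases, *RGL2* shared 14 with *GAI*, *RGA* 13, *RGL3* 12 and *RGL1* 11. Over all 60 bases, *RGA* shared 44 with *GAI* and *RGL3* 40.

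The receptors resemble hormone-sensitive lipases and keep their HGG motif, which lies at the hormone pocket. The windows around it are shown for the same reason as above. They lie within 1 exon of the 2 exons of each gene, on the plus strand, at chr3:1431565-1431618 for *GID1A*, chr3:23290237-23290290 for *GID1B* and chr5:9630021-9630074 for *GID1C*. Capitals mark the 3 codons of the motif.
GID1A: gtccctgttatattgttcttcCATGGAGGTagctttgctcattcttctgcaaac
GID1B: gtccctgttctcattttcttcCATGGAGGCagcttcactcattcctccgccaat
GID1C: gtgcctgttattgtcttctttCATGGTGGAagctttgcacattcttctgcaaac
Over the whole coding sequence, the closest pairs were *GID1A* with *GID1C* (83.8% identical bases), *GAI* with *RGA* (82.5%) and *RGL2* with *RGL3* (77.4%). Their longest shared runs were 35, 30 and 24 bases, shorter than the 75-base reads. None of the 75-base windows within a single exon of any member occurs exactly elsewhere in TAIR10.1, and no annotated gene overlaps a member. Reads that cross a splice junction or carry an error were not covered by this search.

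The libraries held 9960144 to 15244500 counts on genes, so that the limit of 3 counts set by a count of 0 corresponds to 0.197 to 0.301 CPM (a gene's counts per 1e6 counts on genes, scaled by edgeR's TMM factors in the levels below). This limit covers counting error only. Low counts depended on the place in the genome: of the protein-coding genes whose chromosomal position was within the first 5 Mb, 28.1% (1567 of 5575) had a mean under 10 counts, against 45.4% (9591 of 21137) farther in. *SKP1*, a subunit of SCF ligases in most cells, was at 0 in every library and was picked after its values were seen. The leaf markers with counts past the first 5 Mb, *RBCS1A* and *RCA*, averaged 70.4 and 2306 CPM in WT. Whether non-zero counts past the first 5 Mb stand for the whole gene was not tested. Of all tested genes, 38.8% were called higher and 38.3% lower in the comparison of genotypes given below. Of 7 leaf marker genes, 6 were tested and all 6 were called lower in *rse1-1*, though the libraries of *LHCB2.1* overlapped. Their summed level was 8598 to 8746 CPM in WT and 4128 to 4943 CPM in *rse1-1*, and *LHCB2.3* was at 0 in every library. Of 3 guard cell markers 1 was higher and 2 were lower (158 to 161 CPM summed in WT, 184 to 194 CPM in *rse1-1*), and of 3 vein markers 2 were lower (597 to 629 CPM against 511 to 534 CPM). Markers of other organs had low levels. Summed root markers lay at 14.4 to 20.2 CPM in WT and 19.4 to 22.3 CPM in *rse1-1*. Flower markers lay at 4.74 to 5.07 CPM and 0.239 to 0.968 CPM, in WT almost all from *SEP3* (log2 fold change -3.88), with *AG* at 0. Shoot apex markers summed to no more than 0.0985 CPM, with *WUS* and *CLV3* at 0. The leaf trichome markers *GL1*, at 0, and *GL2* summed to no more than 0.101 CPM. *WUS*, *CLV3*, *AG*, *GL1* and *GL2* lie past the first 5 Mb, so their values do not show that such cells were absent. The part of the marker shifts in the results below was not tested. Fewer cells of a type and less RNA per cell cannot be told apart in these samples.

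All 4 measured DELLA genes had lower mRNA levels in *rse1-1*, and of the 2 measured receptor genes *GID1A* was higher. Of the 6 members tested, 4 were called lower and 1 higher in the comparison of genotypes (quasi-likelihood test of edgeR, adjusted p under 0.05 after Benjamini-Hochberg correction for 16294 genes). In the same comparison 77% of all tested genes were called, 38.8% higher and 38.3% lower, so a call by itself does not set a gene apart. Among the tested genes of the first 5 Mb alone, 79.7% were called. The genotypes did not overlap for 5 of the 6 members, as for 79.5% of tested genes. No member changed by a log2 fold change of 1 or more.

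*RGA* and *GAI* encode the main repressors of vegetative growth. *RGA* (chromosome 2, 255247 to 257568) stood at 253.6, 220.1 and 217.1 CPM in the WT libraries and at 138.3, 147.0 and 144.1 CPM in the *rse1-1* libraries. Every *rse1-1* library lay below every WT library by more than the range within either genotype. The level fell from 230.2 ± 20.3 to 143.2 ± 4.41 CPM (SD, n = 3 each), to 62.2% of WT (log2 fold change -0.69, standard error 0.0756, edgeR adjusted p = 8.99e-07). *GAI* (chromosome 1, 5148982 to 5151415) stood at 125.8, 111.9 and 107.9 CPM in WT and at 61.8, 57.5 and 60.2 CPM in *rse1-1*. The *GAI* groups were likewise apart, and the level in *rse1-1* was 51.9% of WT (115.2 ± 9.40 to 59.8 ± 2.14 CPM, log2 fold change -0.94, 95% interval -1.10 to -0.78, edgeR adjusted p = 2.65e-08). In size these changes were ordinary for the comparison, since 52.5% of tested genes changed less than *RGA* and 65.8% less than *GAI*.

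The other DELLA genes were much lower expressed. *RGL2*, known chiefly as the repressor of seed germination (chromosome 3, 819337 to 821652), stood at 15.1, 12.9 and 12.1 CPM in WT and at 9.70, 7.75 and 9.17 CPM in *rse1-1*. These groups did not overlap either, and *RGL2* fell to 66.3% of WT (log2 fold change -0.58, standard error 0.135, edgeR adjusted p = 0.00120). *RGL3*, known for its link to jasmonate responses (chromosome 5, 5763989 to 5766246), was near the lower end of what was tested, at 33, 34 and 44 counts (WT) and 33, 34 and 16 (*rse1-1*). In CPM these are 3.35, 3.35 and 3.79 against 2.15, 3.29 and 1.28, so *rse1-1* replicate 2 sat almost level with WT. The call for *RGL3* (log2 fold change -0.68, 95% interval -1.26 to -0.098, edgeR adjusted p = 0.0336) was lost with DESeq2 (-0.64, adjusted p = 0.110) and on leaving out any library other than *rse1-1* replicate 2. The log2 fold change of *RGL3* was -0.40 without *rse1-1* replicate 3 and -0.99 without *rse1-1* replicate 2.

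**Figure D1:**
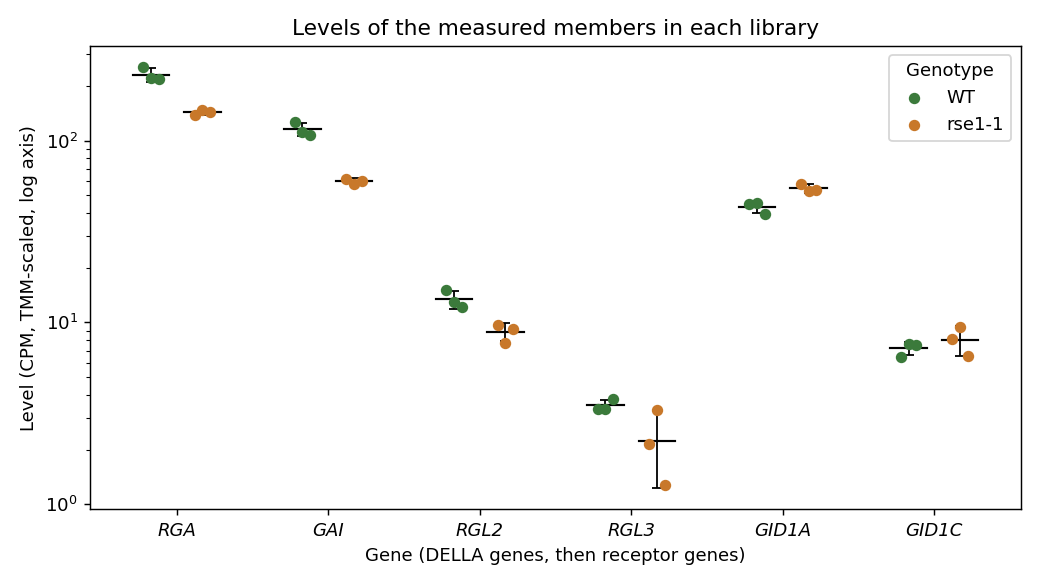
Level of each measured gene in every library, in TMM-scaled CPM on a log axis, with green points for WT and orange points for *rse1-1*; bars give the mean and SD of 3 replicates. The 4 DELLA genes sat lower in *rse1-1*, *GID1A* sat higher (39.5 to 45.2 CPM in WT, 52.6 to 57.8 CPM in *rse1-1*), and the *GID1C* points of the genotypes overlapped.

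Of the measured receptors, *GID1A* rose and *GID1C* did not pass the test. *GID1A* (chromosome 3, 1430363 to 1432844) stood at 44.5, 45.2 and 39.5 CPM in WT and at 57.8, 52.6 and 53.3 CPM in *rse1-1*. All *rse1-1* libraries were above all WT libraries, and the mean was 1.27-fold that of WT (43.1 ± 3.14 to 54.6 ± 2.87 CPM, log2 fold change 0.35, 95% interval 0.17 to 0.52, edgeR adjusted p = 0.00124). Only 28.9% of tested genes changed less than *GID1A*. Under upper quartile scaling the log2 fold change of *GID1A* was 0.15 and missed the threshold (adjusted p = 0.0940), while the median over all tested genes went from -0.0086 to -0.20.

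*GID1C* (chromosome 5, 9628990 to 9631291) stood at 6.49, 7.58 and 7.50 CPM in WT and at 8.13, 9.49 and 6.54 CPM in *rse1-1*. One *rse1-1* library fell among the WT libraries, and *GID1C* did not pass the test (log2 fold change 0.15, 95% interval -0.19 to 0.49, edgeR adjusted p = 0.394). The interval leaves room for changes of either sign, and its upper end takes in the value of *GID1A*. The 95% intervals of the DELLA genes and of *GID1A* did not include 0.

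**Figure D2:**
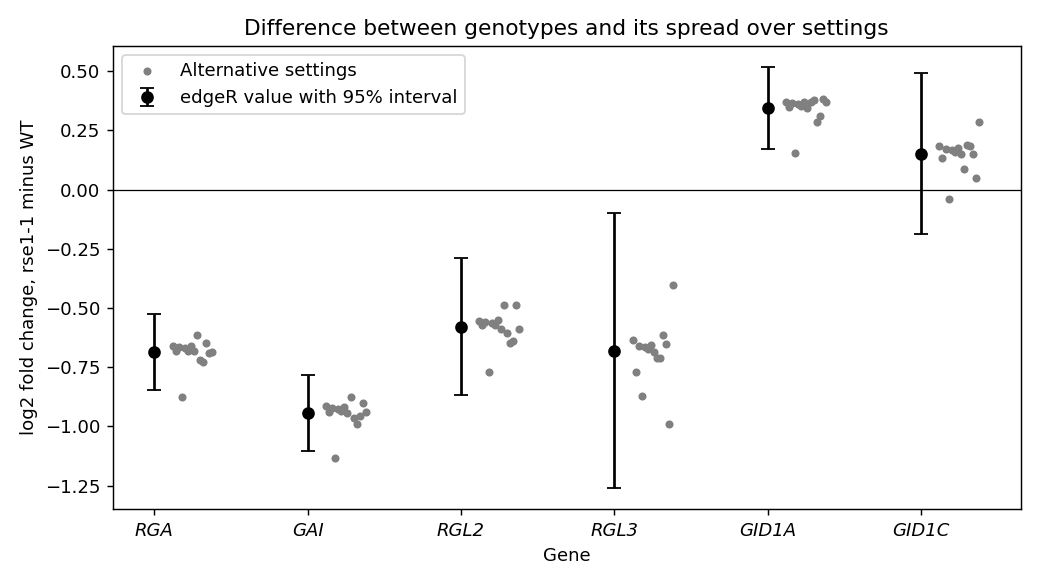
Log2 fold change (*rse1-1* minus WT) of each measured gene, with black points and 95% intervals for the edgeR fit and grey points for the alternative settings. The 4 DELLA genes stayed below 0 in every setting (*GAI* -1.13 to -0.88, *RGA* -0.88 to -0.61, *RGL2* -0.77 to -0.49, *RGL3* -0.99 to -0.40), *GID1A* stayed above 0 (0.15 to 0.38), and *GID1C* lay on both sides (-0.039 to 0.28).

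The remaining 4 members were not measured. *RGL1* (chromosome 1, 24748105 to 24750186), *SLY1* (chromosome 4, 12563279 to 12564482) and *GA20OX1*, an enzyme of the late steps of gibberellin synthesis (chromosome 4, 12990851 to 12992585), had 0 counts in all 6 libraries. *GID1B* (chromosome 3, 23289243 to 23291486) was at 0 in the WT libraries and at 0, 1 and 2 counts in *rse1-1*. All 4 lie beyond the first 5 Mb, whereas *RGA*, *RGL2* and *GID1A* lie within it and *GAI* and *RGL3* just past it. *GID1C* was measured although it lies farther in. These counts therefore do not show whether the 4 genes were expressed.

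**Figure D3:**
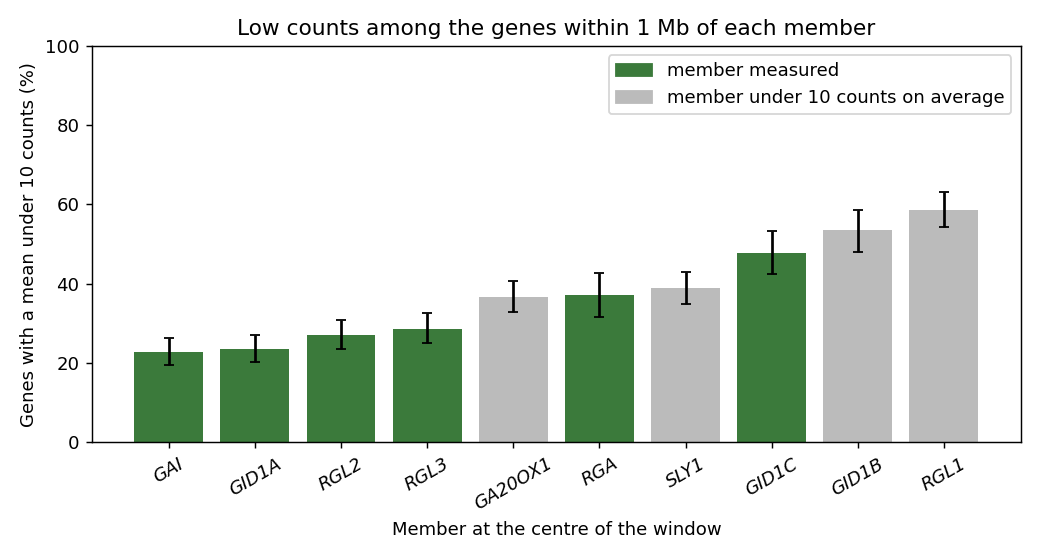
Share of protein-coding genes within 1 Mb on either side of each member that had a mean under 10 counts per library, in percent, with 95% Wilson intervals; green bars stand for measured members and grey bars for the others. The share ran from 22.8% around *GAI* to 58.7% around *RGL1*, and the grey bars of *GA20OX1* (36.6%) and *SLY1* (38.8%) lay beside the green bar of *RGA* (37.0%).

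The nearest annotated gene on each side of a member is given because the strand setting of the counting is not given in the sources used here. Values in counts are means of raw counts, not scaled for depth, so they do not give the size of a change. Both neighbours of *GAI*, *GID1A*, *RGL3* and *GA20OX1* lie on the strand opposite to the member. So do AT3G03440 next to *RGL2*, AT5G27330 next to *GID1C* and AT4G24204 next to *SLY1*. The other neighbours lie on the strand of the member. To the left of *GAI*, AT1G14910 averaged 862 counts (WT) and 1245 (*rse1-1*), and AT1G14930 on the other side had 3.33 and 0. Next to *RGL2*, AT3G03440, at a gap of 460 bases, rose with a log2 fold change of 2.93 (93.3 to 874 counts) while *RGL2* fell, and AT3G03460 had 54 and 96.7 counts. Next to *GID1A*, AT3G05130, at a gap of 283 bases, fell with a log2 fold change of -0.87 (588 to 391 counts) while *GID1A* rose, and AT3G05110 had 0.333 and 4 counts. Next to *GID1C*, AT5G27330 fell with a log2 fold change of -1.74 (235 to 84.3 counts), and AT5G27310 had 14.3 and 11.7 counts. *RGA* (AT2G01560, AT2G01580), *RGL3* (*PC1*, AT5G17500) and *GA20OX1* (AT4G25410, *TRM23*) had neighbours at 0 on both sides. The unmeasured *SLY1* lay between AT4G24204 (27.3 and 58 counts) and *VEP1* (238 and 487 counts), and *RGL1* between AT1G66345 (228 and 427 counts) and AT1G66360 (250 and 124 counts). The neighbours of *GID1B* were at 0 (*NPL41*) or at most 1 count (AT3G63020).

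Levels of different genes were compared per kb of exon. In WT the order was *RGA* (99.2 ± 8.74 CPM per kb), *GAI* (47.3 ± 3.86), *GID1A* (22.5 ± 1.64), *RGL2* (5.78 ± 0.666), *GID1C* (3.90 ± 0.329) and *RGL3* (1.55 ± 0.113, all SD, n = 3), and no neighbours in this order overlapped. Among all tested genes this placed *RGA* at percentile 91.2 and *RGL3* at percentile 6.90 of the level per kb. In *rse1-1* the order was *RGA* (61.7 ± 1.90 CPM per kb), *GID1A* (28.5 ± 1.50), *GAI* (24.6 ± 0.878), *GID1C* (4.37 ± 0.802), *RGL2* (3.83 ± 0.435) and *RGL3* (0.991 ± 0.448). *GID1A* thus stood above *GAI* in *rse1-1* (27.5 to 30.2 against 23.6 to 25.4 CPM per kb) and below it in WT, whereas *GID1C* and *RGL2* overlapped in *rse1-1*. Per kb of coding sequence the WT levels were higher, at 130.5 for *RGA*, 71.9 for *GAI*, 41.5 for *GID1A* and 6.95 for *GID1C*. Within each genotype the order of the genes was the same as per kb of exon.

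Summed over the measured genes, DELLA mRNA stood at 168.9, 147.8 and 144.7 CPM per kb in WT and at 90.1, 91.7 and 91.3 in *rse1-1*. The *rse1-1* sum was 59.2% of WT, and its 3 libraries lay close together. Receptor mRNA (*GID1A*, *GID1C* and the few counts of *GID1B*) summed to 26.4 ± 1.56 CPM per kb in WT and 32.9 ± 1.61 in *rse1-1* (SD, n = 3), 125% of WT. The ratio of receptor to DELLA mRNA per kb was 0.159, 0.188 and 0.171 in WT and 0.384, 0.356 and 0.344 in *rse1-1*, so its *rse1-1* mean was 209.9% of that of WT. *RGL1*, at 0, added nothing to these sums, and *GID1B* added at most 0.078 CPM per kb in any library. Neither gene was measured, and the sums say nothing about protein.

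The makeup of the DELLA sum moved less than its size. *RGA* gave 64.5% of it in WT and 67.7% in *rse1-1*, *GAI* 30.8% and 27.0%, *RGL2* 3.75% and 4.21%, and *RGL3* 1.01% and 1.09%. The ratio of *RGA* to *GAI* per kb was 2.06 to 2.11 over the WT libraries and 2.35 to 2.68 over the *rse1-1* libraries, which do not overlap. No test was run on these sums and ratios, and 3 libraries against 3 cannot go below an exact permutation p of 0.1.

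**Figure D4:**
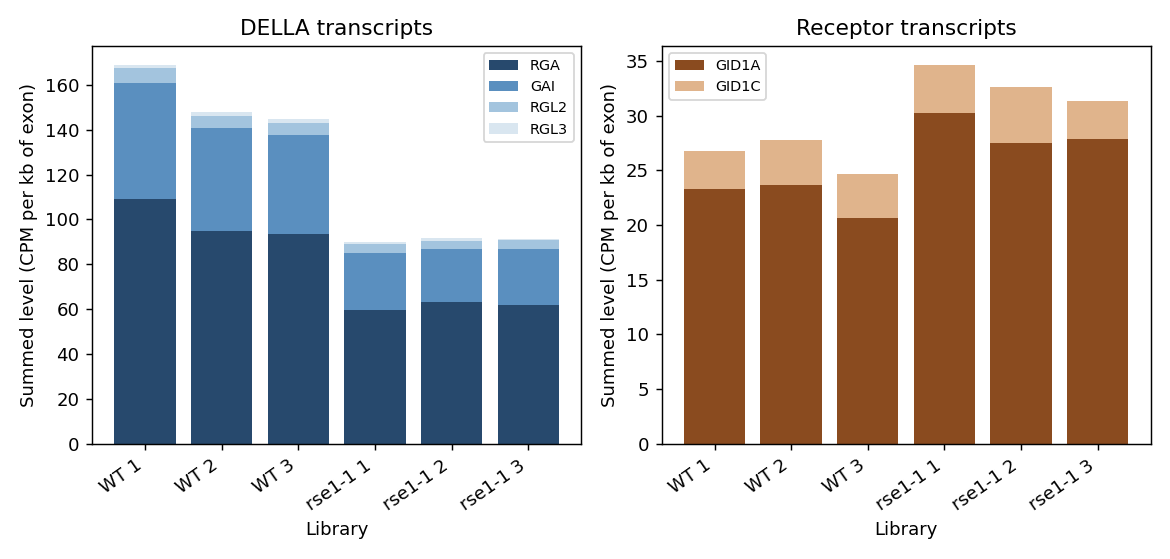
Summed level of measured DELLA genes (left) and of the receptor genes *GID1A* and *GID1C* (right) in each library, in CPM per kb of exon, with 1 colour for each gene. The DELLA bars reached 144.7 to 168.9 in WT and 90.1 to 91.7 in *rse1-1*, while the receptor bars were higher in *rse1-1*, and *RGA* made up most of every DELLA bar.

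Of 74 other genes of the gibberellin pathway, 42 were tested, of which 20 were higher, 17 lower and 5 not called in *rse1-1* (38.8% and 38.3% of all tested genes). Their median log2 fold change was 0.070, against -0.0086 over all tested genes, and 21 of the 74 were at 0 in every library. The balance of directions depended on the libraries and the tool: it was 19 higher and 11 lower without WT replicate 3, and 19 and 12 with DESeq2. Of the 74, 18 lie within 5 Mb of a chromosome's start. Genes named below that lie farther in include *GA2*, *KAO2*, *GA2OX2*, *JAZ1*, *IQD22* and *GASA9*. Whether their counts stand for the whole gene was not tested.

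Genes of gibberellin synthesis moved in both directions. Of 13 genes 8 were tested, with 3 higher, 4 lower and 1 not called, and their median log2 fold change of -0.28 changed sign with the settings (-0.47 to 0.11). Only 1 gene was called higher, with 4 lower, without *rse1-1* replicate 1, with DESeq2 or with upper quartile scaling. *GA2*, ent-kaurene synthase, rose from 115, 91 and 113 counts in the WT libraries to 834, 419 and 606 in *rse1-1* (log2 fold change 2.25, edgeR adjusted p = 5.57e-10). *GA1*, which makes the substrate of *GA2* and was picked after its values were seen, showed 16, 21 and 20 WT counts and 5, 2 and 7 counts in *rse1-1* (log2 fold change -2.27, edgeR adjusted p = 3.97e-05). The 2 opening steps of the pathway thus had opposite changes, though *GA1* passed the count filter through its WT libraries alone. *KAO2*, an ent-kaurenoic acid oxidase, fell from 34.4 ± 1.31 to 21.8 ± 0.964 CPM (log2 fold change -0.66, edgeR adjusted p = 5.33e-06), while its paralogue *KAO1* rose by less (log2 fold change 0.23, edgeR adjusted p = 0.0225). *GA3OX1*, which forms bioactive gibberellin in the last step, fell from 4.14 ± 0.543 to 1.56 ± 0.304 CPM (log2 fold change -1.44, edgeR adjusted p = 3.74e-05). Its paralogue *GA3OX2*, for the same step, had 19, 21 and 29 counts in WT libraries against 48, 31 and 38 (log2 fold change 0.49, edgeR adjusted p = 0.0457). *KAO1* and *GA3OX2* were picked after their values were seen. *GA20OX2*, like *GA20OX1*, was at 0 in every library.

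Of 12 genes of gibberellin inactivation 5 were tested, with 4 higher and 1 lower. Their median log2 fold change was 3.44 (2.57 to 3.66 over the settings). *ELA1* and *CYP72A9* passed the count filter through their *rse1-1* libraries alone, so they could not have been called lower. With at least 10 counts required in every library, 3 of the 12 were tested, 2 higher and 1 lower, with a median of 2.57. *GA2OX6*, a gibberellin 2-oxidase in the first 5 Mb of chromosome 1, went from 21, 14 and 16 counts (WT) to 282, 138 and 259 (*rse1-1*) (log2 fold change 3.44, standard error 0.221, edgeR adjusted p = 2.23e-09). Another 2-oxidase, *GA2OX2*, rose from 5.35 ± 0.575 to 30.8 ± 4.32 CPM (log2 fold change 2.54, edgeR adjusted p = 3.75e-10). *ELA1*, a P450 that acts on gibberellins, went from 0, 0 and 1 counts to 67, 39 and 53, and *CYP72A9* had 2, 0 and 1 against 55, 24 and 41. *GA2OX2*, *ELA1*, *CYP72A9* and *GAMT1* were picked after their values were seen. The methyltransferase gene *GAMT1* was the 1 called lower (log2 fold change -0.45, edgeR adjusted p = 0.0400). Its libraries overlapped, and no gene of this list was called lower with DESeq2, with RLE scaling or on leaving out any library other than *rse1-1* replicate 3. Of the 12 genes, 6 were at 0 throughout.

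Of 10 genes that degrade or modify DELLA proteins 7 were tested, with 5 higher, 0 lower and 2 not called (median log2 fold change 0.40, 0.21 to 0.47 over the settings), and with 4 higher and 1 lower under upper quartile scaling. *SNE*, an F-box gene related to *SLY1*, rose from 9.26 ± 1.47 to 15.7 ± 4.33 CPM (log2 fold change 0.77, edgeR adjusted p = 0.00154), but lies on chromosome 5 beyond its first 5 Mb. *SPY*, which attaches fucose to DELLA proteins, had a log2 fold change of 0.40 (edgeR adjusted p = 2.49e-04). *SEC*, the related enzyme that attaches N-acetylglucosamine, had one of 1.44.

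Genes for partners of DELLA proteins were split. Of 18 genes 12 were tested, with 6 higher and 6 lower, and the median log2 fold change of 0.047 changed sign with the settings (-0.18 to 0.23). The calls were 6 higher and 3 lower with DESeq2 and on leaving out WT replicate 3, *rse1-1* replicate 1 or *rse1-1* replicate 3. *JAZ1*, a jasmonate repressor that binds DELLA proteins, had the largest rise of this list, from between 7.88 and 10.6 CPM in the WT libraries to between 190.0 and 225.9 CPM in the *rse1-1* libraries (log2 fold change 4.51, edgeR adjusted p = 9.12e-14), and *MYC2*, a jasmonate transcription factor, rose from 32.9 to 112.3 CPM (log2 fold change 1.77). The light-signalling factors *PIF3* and *PIF4*, which DELLA proteins bind, moved apart, with log2 fold changes of 0.75 and -0.51. *MYC2*, *PIF3* and *PIF4* were picked after their values were seen. *SCL3*, a GRAS gene that acts against DELLA proteins, rose with a log2 fold change of 1.76 (edgeR adjusted p = 1.05e-04). *SCL3* had only 5 to 6 counts per WT library and 16 to 31 per *rse1-1* library, and passed the count filter through *rse1-1* alone. The zinc finger gene *JKD* fell by 0.96 on the log2 scale (edgeR adjusted p = 0.00173).

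Among 7 genes listed as induced by DELLA proteins in seedlings, 4 were tested, with 2 higher and 2 lower, and their median log2 fold change of 0.086 also changed sign with the settings (-0.11 to 0.15). Without WT replicate 3, 2 were higher and 1 was lower. *XERICO*, a RING gene that raises abscisic acid, rose from 36.1 ± 3.79 to 54.7 ± 3.26 CPM (log2 fold change 0.60, edgeR adjusted p = 1.75e-05) and AT3G11280 rose from 146.8 to 226.6 CPM (log2 fold change 0.63), both near the start of their chromosome. *IQD22* fell from 6.86 to 2.25 CPM (log2 fold change -1.59, edgeR adjusted p = 2.38e-06). Genes of this list therefore did not share a direction with each other.

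The GASA genes encode small cysteine-rich peptides, several of which gibberellin induces. Of 14 genes 6 were tested, with 0 higher, 4 lower and 2 not called (median log2 fold change -0.62, -0.81 to -0.19 over the settings). DESeq2, which tested 8 of them, called 1 higher and 3 lower, and edgeR without a filter called 2 of 11 higher and 4 lower. *GASA9* fell from 8.57 ± 1.79 to 2.86 ± 0.903 CPM (log2 fold change -1.63, edgeR adjusted p = 9.22e-06). *GASA4* fell from 138.5 ± 5.94 to 49.7 ± 5.88 CPM (log2 fold change -1.48, edgeR adjusted p = 6.80e-10) and *GASA14* from 104.6 ± 9.30 to 60.7 ± 7.01 CPM (log2 fold change -0.79, edgeR adjusted p = 1.44e-06), both in the first 5 Mb of chromosome 5. *GASA1* fell from 9.69 to 7.05 CPM (log2 fold change -0.45, adjusted p = 0.0167), a call that was lost with DESeq2 (-0.42, adjusted p = 0.0656) and on leaving out WT replicate 3, *rse1-1* replicate 2 or *rse1-1* replicate 3 (adjusted p up to 0.0751). Leaving out each library in turn gave -0.61 to -0.34 for *GASA1*. *GASA1*, *GASA4* and *GASA14* were picked after their values were seen.

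**Figure D5:**
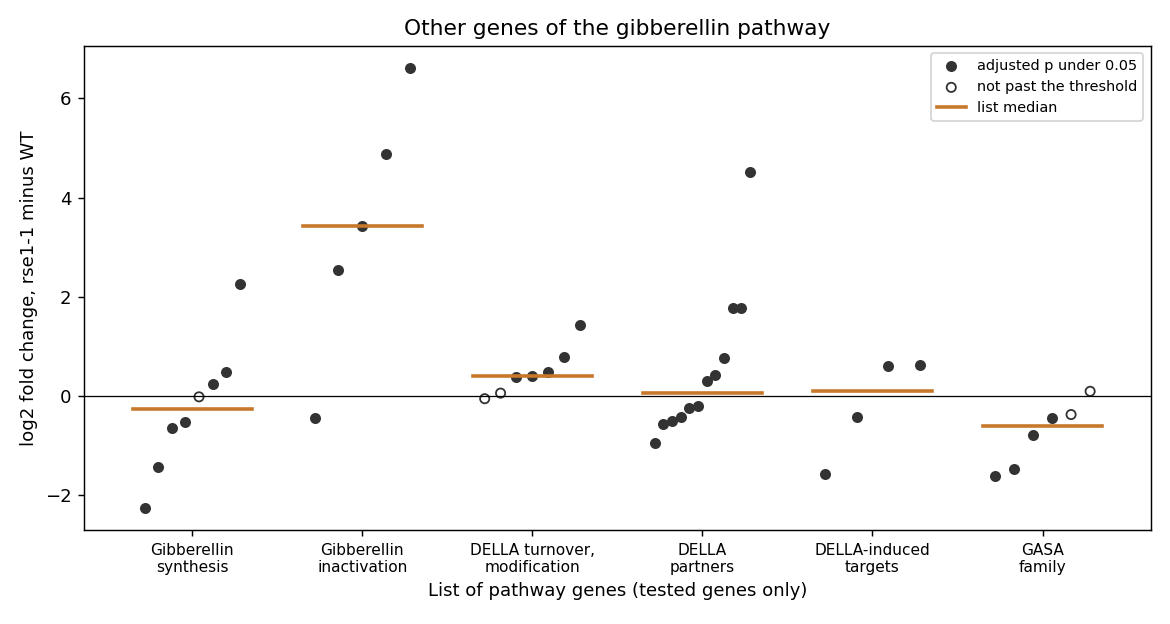
Log2 fold change (*rse1-1* minus WT) of every tested gene in 6 lists of the gibberellin pathway, with filled points for an adjusted p under 0.05, open points for the rest and orange bars for list medians. Inactivation genes had a median of 3.44 and GASA genes one of -0.62; the 2 highest inactivation points are *ELA1* and *CYP72A9*, whose fitted values depend on WT libraries with 0 to 2 counts.

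The genes whose levels ran most like those of the called members in the first 5 Mb were sought among the 11632 tested genes that averaged at least 10 CPM, by Pearson's r of log2 CPM over the 6 libraries. For *RGA* these were the thioredoxin gene *WCRKC1* (r = 0.999) and *GATL6* (r = 0.998), and 2017 genes had an r above 0.95. For *RGL2* they were the oleate desaturase gene *FAD2* (r = 0.998) and *PP2-A13* (r = 0.991), with 121 genes above 0.95. For *GID1A* they were AT5G20000 (r = 0.996) and the ascorbate peroxidase gene *APX1* (r = 0.994), with 299 genes above 0.95. The 6 points fall into 3 WT and 3 *rse1-1* libraries, so these values are a description that mixes the genotype difference with the spread inside each genotype.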

How the data were processed

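mRNA from 6 leaf libraries, 3 of each genotype, was analysed. The authors trimmed single reads of 75 bases with Trimmomatic, aligned them with TopHat2 to a genome rebuilt for L*er*-0, removed duplicates with Picard and used HTSeq to count unique reads per gene. Raw counts were deposited. The strand setting and annotation version are not given in the sources used here. Entries not assigned to a single gene (off genes, ambiguous or not uniquely aligned, 47.0% to 48.7% of a library) were left out.

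Counts were compared with edgeR 4.0.16 in R 4.3.3 (TMM factors 0.991 to 1.01, filterByExpr with a minimum count of 10, genotype alone, quasi-likelihood test, Benjamini-Hochberg adjustment, threshold 0.05). Standard errors are the log2 fold change divided by the root of F. On simulated counts for this comparison, edgeR recovered 189 of 200 genes changed by a fold of 2 among 16233 tested and called 19 others. All other genes were left unchanged there. The simulation therefore does not cover smaller changes, such as those of the members, or data in which most genes differ. Of the gene identifiers, 32835 matched TAIR10.1, from which positions, exons and sequences come.

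The members and lists were chosen with earlier results of these data known. Named were all members, their nearest genes, 7 set pathway genes (*GA3OX1*, *GA20OX2*, *SPY*, *SEC*, *SCL3*, *XERICO*, *SNE*), and of each list the largest called rise and fall with at least 5 CPM in either genotype and no overlap. Exceptions from the pathway lists are marked in the text. Alternatives were DESeq2 1.42.0, limma-voom (limma 3.58.1), other scalings, filters and thresholds, a replicate block, leaving out each library, coding length and other windows.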

Additional observations from a re-analysis of the deposited data

How the results depend on the processing

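The count of called genes (12548) was 5175 where a log2 fold change of at least 1 was also required, and the counts for members (5) and pathway lists (37) were then 0 and 14. Under the other settings these counts stayed within 1.5 times. Leaving out each library in turn gave 11911 to 12546 genes, 4 to 5 members and 30 to 35 pathway genes. Of the members, *RGL3* and *GID1A* lost their call in some setting. Of the pathway genes, *GASA1* and *GAMT1* did so among others, and the split of calls by direction moved with single libraries, from 18 to 20 higher and from 11 to 15 lower. The direction of *GID1C*, which was not called, reversed with upper quartile scaling (-0.039, adjusted p = 0.832), a scaling that left 40.1% of called genes higher against 50.3% with TMM. Same-numbered libraries of the genotypes correlated in their deviations at 0.0346, 0.0692 and -0.0518, and differently numbered ones at -0.0772 to 0.0447. With 3 libraries in each genotype, these values do not settle whether the numbers pair libraries. A fit with the replicate number as a block gave 12546 genes, 5 members and 36 pathway genes. Levels per kb of coding sequence were higher than per kb of exon for each of the 6 measured genes. Depth limits the values of *RGL3* (16 to 44 counts per library) and *SCL3* (5 to 31), and genes at 0 past the first 5 Mb cannot be read as silent. Non-zero counts in that region carry a limit too, since their completeness was not tested.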
